A study of Rattus norvegicus with 12 samples.

Results

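The genes described here are the MEF2 transcription factors Mef2a, Mef2b and Mef2d and the class IIa histone deacetylases Hdac4, Hdac5, Hdac7 and Hdac9, measured in cultured neonatal rat ventricular cardiomyocytes. They were taken by gene symbol from the annotation of the array's probe sets. Of the 7 genes, 6 had a probe set that carried their symbol alone, each of them 1 probe set, out of 10025 genes tested. Hdac9 had none and was not analysed here. Mef2c, the gene carried by the viruses, had none either, so neither the endogenous gene nor the transgenes were followed.

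MEF2 proteins bind A/T-rich elements in the control regions of muscle genes through a conserved DNA-binding region at their N-terminus, and they act in heart, skeletal muscle, neurons, vessels and lymphocytes. Class IIa deacetylases bind that same N-terminal region of MEF2 and hold its targets in check, mostly through partner corepressors, since their own catalytic activity is weak. Kinases such as CaMK and protein kinase D phosphorylate them, 14-3-3 proteins then bind and carry them out of the nucleus, and MEF2 is released. MEF2C itself is spliced with or without a γ segment, which is known as a repressor region.

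The cells came from Wistar rats and were treated in 4 groups of 3 arrays. Cultures were given adenovirus for mef2Cγ+23/24 (γ+23/24 group), a γ+ variant whose change the labels do not define, for mef2Cγ+ (γ+ group, with the γ segment), or for mef2Cγ- (γ- group, without it), and untreated cultures were the control. Every culture spent 44 h in serum-containing plating medium and then 24 h in serum-free medium before use, and each array received label from 2 µg of its total RNA. The labels call the arrays of a group biological replicates without saying whether they were separate cell isolations, so p-values measure the spread between these samples. An empty-virus culture was not among the 4 groups, so an effect of adenovirus and an effect of the MEF2C form cannot be told apart in any comparison with control. The sources used here do not give the viral dose, the promoter driving the transgene or the age of the animals in days.

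Values are deposited log2 intensities. Some probe sets had exactly the same value on 2 arrays. This happened, 27 to 111 times per pair, in each of the 21 pairs whose arrays were both from the γ+23/24 and control cultures, both γ+ or both γ-, but never in the other 45 pairs. Differences of the γ+ or γ- group from any other group therefore cross sets of arrays that appear to have been normalized apart. The γ+ array of replicate 2 stood off from its group: the standard deviation of its differences from replicates 1 and 3 was 0.240 and 0.241 log2 over the tested genes, against 0.116 between replicates 1 and 3. Its limma array weight was 0.135, where the other 11 arrays had 0.564 or more. Results on the γ+ group are therefore given with and without it. In the γ+ group 12 of 12 cardiomyocyte, 10 of 10 fibroblast, 7 of 7 smooth muscle and 6 of 6 endothelial markers tested were lower. Among macrophage markers 3 of 5 tested were lower. All these counts are against control, where 38.7% of all genes were lower. Under median centring of the arrays 1 macrophage gene was lower, beside 3041 of all 10025 genes.

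Sequences of the RefSeq promoters (GRCr8 assembly, 250 bases before to 50 after each gene's start) are shown for Mef2a, Hdac5 and Mef2d. MEF2 factors are known to bind control regions of their own pathway. The MEF2 box, the A/T-rich consensus of this family, was searched on both strands and is in capitals where found. These 3 genes differ from each other in holding a box, in their γ+ call against control, or in both. All 7 genes had a promoter in the table, and 2 of them, Mef2a and Hdac5, held a box. Of all 33469 promoters given 3.29% held one, and 1.5% of those of 8319 tested genes. The Mef2a promoter lies at chr1:130392113-130392412 on the minus strand, that of Hdac5 at chr10:87688005-87688304 on the minus strand, and that of Mef2d at chr2:175904082-175904381 on the plus strand.
Mef2a: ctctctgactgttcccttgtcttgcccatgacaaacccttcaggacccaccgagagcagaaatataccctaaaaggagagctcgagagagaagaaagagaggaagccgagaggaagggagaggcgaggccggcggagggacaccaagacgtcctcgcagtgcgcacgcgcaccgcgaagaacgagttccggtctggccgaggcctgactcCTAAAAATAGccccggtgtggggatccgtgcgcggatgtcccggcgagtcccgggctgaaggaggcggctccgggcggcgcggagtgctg
Hdac5: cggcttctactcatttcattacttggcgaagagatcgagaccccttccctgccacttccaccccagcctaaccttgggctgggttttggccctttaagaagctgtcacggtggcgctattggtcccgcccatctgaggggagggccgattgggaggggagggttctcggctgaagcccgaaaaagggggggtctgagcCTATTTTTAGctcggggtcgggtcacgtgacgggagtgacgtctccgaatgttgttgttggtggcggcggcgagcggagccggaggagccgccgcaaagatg
Mef2d: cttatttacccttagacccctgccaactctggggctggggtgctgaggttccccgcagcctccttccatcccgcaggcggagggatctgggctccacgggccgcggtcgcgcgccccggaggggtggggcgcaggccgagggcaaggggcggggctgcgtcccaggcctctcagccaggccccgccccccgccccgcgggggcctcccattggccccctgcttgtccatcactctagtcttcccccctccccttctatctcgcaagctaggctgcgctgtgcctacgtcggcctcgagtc
The box of Mef2a, CTAAAAATAG, covers bases 40 to 31 before the start, and that of Hdac5, CTATTTTTAG, bases 52 to 43 before it. Of the 3, Mef2a and Mef2d were lower in the γ+ group against control and Hdac5 was not called. Such a match is a stretch of letters and was not tested as a binding site.

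In the γ+ group against control 4 of the 6 measured genes were called by limma at an adjusted p under 0.05: Mef2a, Mef2d and Hdac7 were lower and Mef2b was higher. Over all genes 64.9% were called in that comparison, 38.7% lower and 26.2% higher, so a call there is common. Median centring of the arrays turned the split of all calls to 3041 lower and 3187 higher genes, but the same 4 genes of the family remained called in the same direction. Arrays of both groups did not overlap for these 4 genes, against 66.6% of all genes. In these bulk cultures fewer cells of a type and less RNA per cell cannot be told apart.

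**Figure D1:**
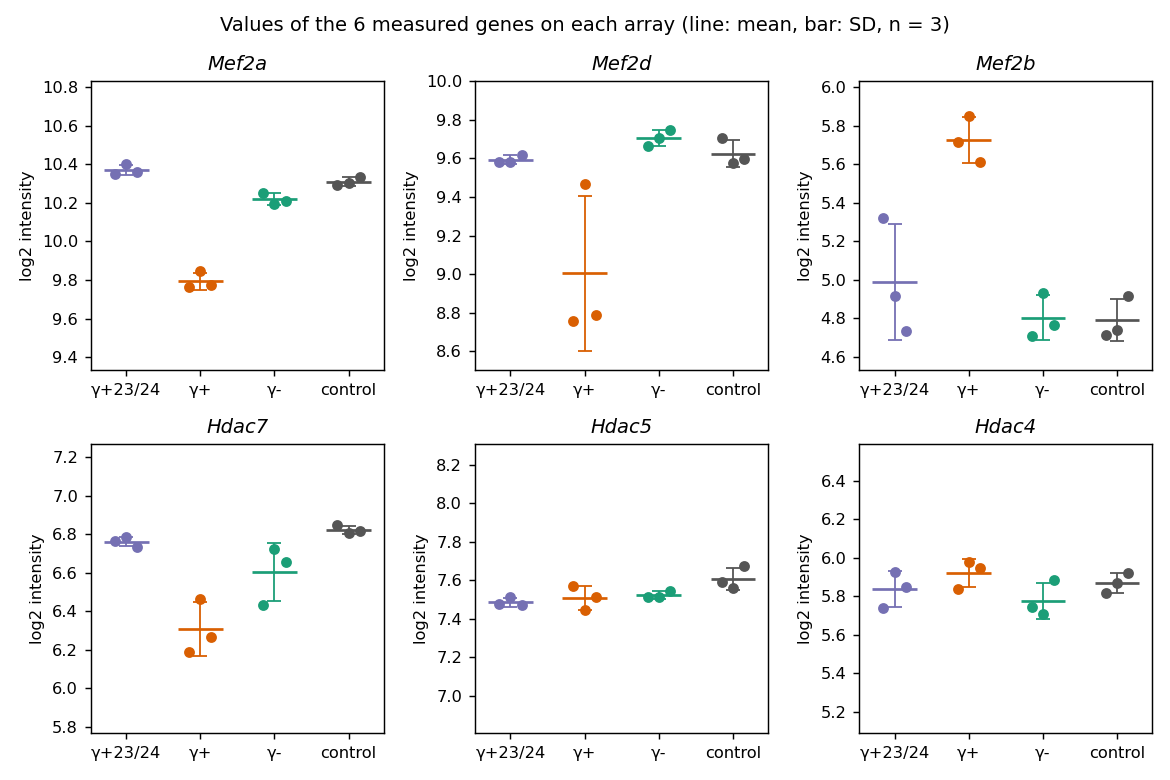
Log2 intensity of each measured gene on each array, with the group mean as a line and the standard deviation as a bar (n = 3); every panel spans the same log2 range. The γ+ arrays sit lowest for Mef2a and Mef2d and highest for Mef2b; for Hdac7 their mean is lowest, with γ+ replicate 2 above γ- replicate 1, while Hdac4 and Hdac5 stay within 0.3 log2 across all 12 arrays.

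Mef2a is, in the mouse, the main MEF2 factor of the postnatal heart. Its log2 values were 10.35, 10.40 and 10.36 in the γ+23/24 group, 9.76, 9.84 and 9.77 in the γ+ group, 10.25, 10.20 and 10.21 in the γ- group, and 10.29, 10.30 and 10.33 in the control. The 3 γ+ arrays lay below all 9 others, and no pair of groups overlapped. Mef2a was 1.43-fold lower in the γ+ group than in the control (log2 fold change -0.52 ± 0.05, SE, n = 3 per group, limma adjusted p = 4.81e-08). Without γ+ replicate 2 the change was -0.54 (limma adjusted p = 4.71e-10). Among all genes 18.3% had a lower γ+ change than Mef2a.

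The order of Mef2a levels was γ+23/24, control, γ- and γ+, from high to low. The γ+23/24 group differed from control by 0.06 (95% interval -0.04 to 0.16, limma adjusted p = 0.729) and the γ- group by -0.09 (-0.19 to 0.01, limma adjusted p = 0.254), so neither neighbour was called apart. The γ+ group was lower than the γ- group by a called difference, with a log2 fold change of -0.43 ± 0.05 (SE, n = 3 per group, limma adjusted p = 4.96e-07). In the γ+23/24 group Mef2a was 1.49-fold higher than in the γ+ group (0.58 ± 0.05, limma adjusted p = 1.25e-08). Between the γ+23/24 and γ- groups the difference of 0.15 ± 0.05 fell just outside the threshold (limma adjusted p = 0.0521). It passed under 6 of 22 alternative settings, among them without γ+ replicate 2 (0.00652). Under median centring the difference was 0.09 (limma adjusted p = 0.369).

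Mef2d, which in mice takes part in the remodelling of the stressed heart, was the most uneven of the genes. It measured 9.58, 9.58 and 9.62 in the γ+23/24 group, 8.76, 9.47 and 8.79 in the γ+ group, 9.67, 9.71 and 9.75 in the γ- group, and 9.71, 9.57 and 9.60 in the control. γ+ replicate 2 stood 0.70 log2 above the mean of the other γ+ arrays, close to the control, and the standard deviation was 0.40 in the γ+ group against 0.07 in the control. Even so all 3 γ+ arrays lay below the other 9. The change from control was -0.62 ± 0.13 (SE, n = 3 per group), with a limma adjusted p of 4.57e-04 and a 95% interval of -0.89 to -0.35. Without γ+ replicate 2 it was -0.85 ± 0.05, with a limma adjusted p of 1.11e-11. That array thus moved both the size and the error of the Mef2d change.

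Mef2d levels ran γ-, control, γ+23/24 and γ+ from high to low. The highest 3 did not differ beyond the pooled error, with γ- minus control at 0.08 (95% interval -0.19 to 0.35) and γ+23/24 minus control at -0.03 (-0.30 to 0.24). Against the γ- group the γ+ value was lower by a log2 fold change of -0.70 ± 0.13, and the γ+23/24 group exceeded the γ+ group by 0.59 ± 0.13 (limma adjusted p = 1.49e-04 and 7.15e-04). The γ+23/24 arrays all lay below the γ- arrays, by 0.11 in the mean, but the test did not pass (limma adjusted p = 0.629). Leaving out γ+ replicate 2, which narrows the pooled error, did not bring that difference past the threshold.

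Mef2b is the most divergent of the MEF2 proteins and is best known from human germinal-centre B cells. Its values were 5.32, 4.91 and 4.74 in the γ+23/24 group, 5.71, 5.85 and 5.61 in the γ+ group, 4.71, 4.93 and 4.77 in the γ- group, and 4.72, 4.74 and 4.91 in the control. The γ+ arrays stood above every other array, and the remaining groups overlapped each other. Mef2b rose 1.91-fold in the γ+ group against control (log2 fold change 0.94 ± 0.13, limma adjusted p = 9.90e-06) and had a higher change than 96.3% of all genes. Without γ+ replicate 2 the change was 0.87 (limma adjusted p = 2.87e-05).

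The level of Mef2b is low for this array. In the control its mean was 0.01 log2 above the cutoff for dim probe sets, which was the 40th percentile of all probe sets (log2 4.78), and with a cutoff at the 60th percentile it was not tested. A probe set at that level may hold little signal of its own, and no detection calls were among the files used. From high to low the order was γ+, γ+23/24, γ- and control. The γ+23/24 mean exceeded the control by 0.20 (95% interval -0.08 to 0.48), and by 0.04 without replicate 1 of that group. The γ+23/24 group was lower than the γ+ group by a called difference (log2 fold change -0.73 ± 0.13, limma adjusted p = 1.21e-04), and the γ+ group exceeded the γ- group by 0.92 ± 0.13 (limma adjusted p = 1.20e-05).

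**Figure D2:**
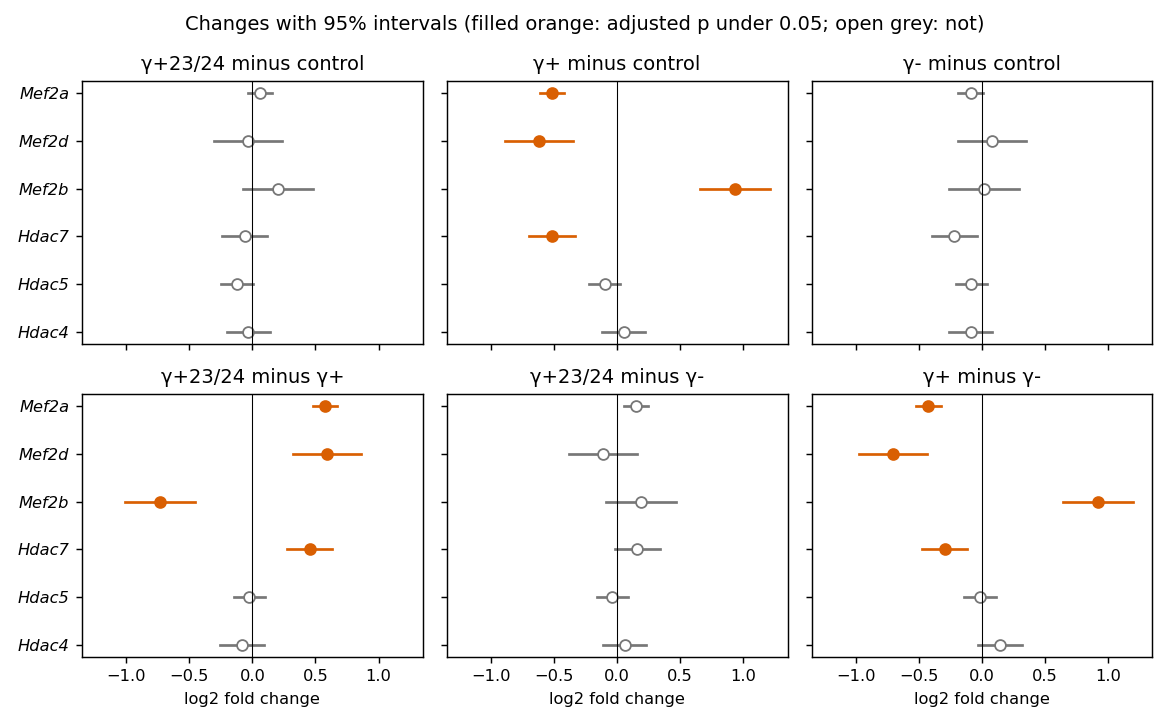
Log2 fold change of each gene in the 6 comparisons with its 95% interval from the limma fit; filled orange points passed an adjusted p of 0.05 and open grey points did not. The 3 comparisons that hold the γ+ group have 4 filled points each and the other 3 have none.

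Hdac7, a class IIa deacetylase known in mice for its part in endothelial cells and thymocytes, was the only deacetylase of its class called in any comparison as fitted. It measured 6.77, 6.78 and 6.73 in the γ+23/24 group, 6.19, 6.46 and 6.27 in the γ+ group, 6.43, 6.72 and 6.66 in the γ- group, and 6.85, 6.80 and 6.82 in the control. The arrays of all 3 virus groups lay below the control arrays, narrowly so in the γ+23/24 group, and γ+ and γ- arrays overlapped through γ+ replicate 2. In the γ+ group Hdac7 was 1.43-fold lower than in the control (log2 fold change -0.52 ± 0.08, limma adjusted p = 5.32e-05), and without γ+ replicate 2 the change was -0.59 (limma adjusted p = 3.43e-06).

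In the γ- group the Hdac7 difference from control was -0.22 ± 0.08 (95% interval -0.40 to -0.04), not called after adjustment (limma adjusted p = 0.130). It was called without γ+ replicate 2 (adjusted p = 0.0470) and with array weights (0.0421), and under 0 of the other 20 alternatives. Without γ- replicate 1, the lowest of its group, the difference was -0.13 (adjusted p = 0.423). Hdac7 levels were thus ordered control, γ+23/24, γ- and γ+. The γ+23/24 group differed from control by -0.06 (-0.24 to 0.12, limma adjusted p = 0.875), and γ+ was lower than γ- by a called difference (log2 fold change -0.30 ± 0.08, limma adjusted p = 0.00578). Compared with the γ+ group, the γ+23/24 group had 1.37-fold more Hdac7 signal (0.46 ± 0.08, limma adjusted p = 1.79e-04).

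In the γ+ group, where Hdac7 was lowest, markers of endothelial and of other cells were lower than in the control. Of 6 tested endothelial genes 6 were lower in the γ+ group against control, with a median log2 fold change of -0.59, beside 38.7% of all genes. In the γ- group 2 of the 6 were lower, with a median of -0.17, beside 3.88% of all genes. Fibroblast markers had medians of -1.44 in the γ+ group (10 of 10 lower) and -0.14 in the γ- group (1 of 10 lower). The medians were -1.21 and 0.01 for 12 cardiomyocyte and -0.79 and 0.02 for 7 smooth muscle markers. In the γ- group 0 of the cardiomyocyte and 1 of the smooth muscle markers were lower. Summed over 7 endothelial genes, the log2 intensity of the γ+23/24 arrays lay between 9.03 and 9.05, that of the γ+ arrays between 8.36 and 8.48, that of the γ- arrays between 8.91 and 9.002, and that of the control between 9.10 and 9.16. Tie1, an endothelial receptor, changed by -1.21 in the γ+ group and -0.30 in the γ- group, and Tek, its relative, by -1.22 and -0.34. Under median centring the γ- calls of both were lost, at little changed values of -0.28 for Tie1 and -0.33 for Tek. The part of these cells in the Hdac7 result was not tested.

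Hdac5, a class IIa deacetylase that restrains cardiac growth in mice, varied little. It measured 7.48, 7.51 and 7.47 in the γ+23/24 group, 7.57, 7.44 and 7.51 in the γ+ group, 7.51, 7.51 and 7.55 in the γ- group, and 7.59, 7.56 and 7.67 in the control. The control was highest in the mean, its arrays lying above those of the γ+23/24 and γ- groups and overlapping the γ+ arrays. The differences from control were -0.12 (95% interval -0.25 to 0.00), -0.10 (-0.22 to 0.03) and -0.08 (-0.21 to 0.04) for the γ+23/24, γ+ and γ- groups, and none was called (limma adjusted p = 0.566, 0.151 and 0.430). These intervals leave out a fall of more than 0.25 log2.

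Hdac4, best known in mice for its role in cartilage and skeletal muscle, gave 5.74, 5.92 and 5.85 in the γ+23/24 group, 5.84, 5.98 and 5.95 in the γ+ group, 5.74, 5.71 and 5.88 in the γ- group, and 5.82, 5.87 and 5.92 in the control. Every pair of groups overlapped. Its γ+ difference from control was 0.05 (95% interval -0.12 to 0.22, limma adjusted p = 0.598). The widest difference, 0.14 between the γ+ and γ- groups (-0.03 to 0.31, limma adjusted p = 0.136), was called when the arrays were rescaled, at 0.21 with arrays centred on the median and 0.20 with quantile normalization (limma adjusted p = 0.0458 and 0.0413). Median centring also gave Hdac4 a called difference of -0.22 between the γ+23/24 and γ+ groups (limma adjusted p = 0.0400); that setting moved the median of all genes in this comparison to -0.07, from 0.07 as deposited.

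Set side by side, the γ+ changes from control in log2 were -0.62 for Mef2d, -0.52 for Mef2a and Hdac7, -0.10 for Hdac5, 0.05 for Hdac4 and 0.94 for Mef2b. Among all genes the median was -0.07. Comparisons of different groups with the same control share its 3 arrays. In the γ+23/24 group against control 0 of 6 genes were called by limma, and 0 had an unadjusted p under 0.05. Over all genes 0% were called there and 899 had an unadjusted p under 0.05. Arrays did not overlap for 3 of the 6, beside 17.9% of all genes. In the γ- group against control 0 of 6 were called and 1, Hdac7, had an unadjusted p under 0.05, where 6.94% of all genes were called (3.06% higher and 3.88% lower). Over all genes 2288 had an unadjusted p under 0.05. Arrays did not overlap for 3 of 6, beside 33.4% of all genes. Between the γ+23/24 and γ- groups 0 of 6 were called and 1, Mef2a, had an unadjusted p under 0.05, against 8.1% of all genes called (3.94% higher and 4.16% lower as deposited, 198 higher and 698 lower genes under median centring). In this comparison 2454 of all genes had an unadjusted p under 0.05. There too arrays did not overlap for 3 of 6, beside 36.2% of all genes.

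The direct comparisons with the γ+ group had the same 4 genes called. In the γ+23/24 group against the γ+ group 3 were higher and 1 lower, where 65.8% of all genes were called (37.9% higher and 28.0% lower as deposited). In the γ+ group against the γ- group 3 were lower and 1 higher, where 64.2% were called (37.5% lower and 26.7% higher as deposited). Under median centring those splits of all genes became 2628 higher and 3703 lower, and 3059 lower and 3091 higher. The 4 genes stayed called without γ+ replicate 2: the γ+23/24 group differed from the γ+ group by 0.60 for Mef2a, 0.82 for Mef2d, -0.67 for Mef2b and 0.53 for Hdac7. In the same fit the γ+ group differed from the γ- group by -0.45 for Mef2a, -0.93 for Mef2d, 0.86 for Mef2b and -0.37 for Hdac7. Arrays did not overlap for 4 of the 6 genes in the first comparison and 3 in the second, beside 67.4% and 67.1% of all genes. With shares this large, being called against the γ+ group did not set the 4 genes apart from other genes.

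**Figure D3:**
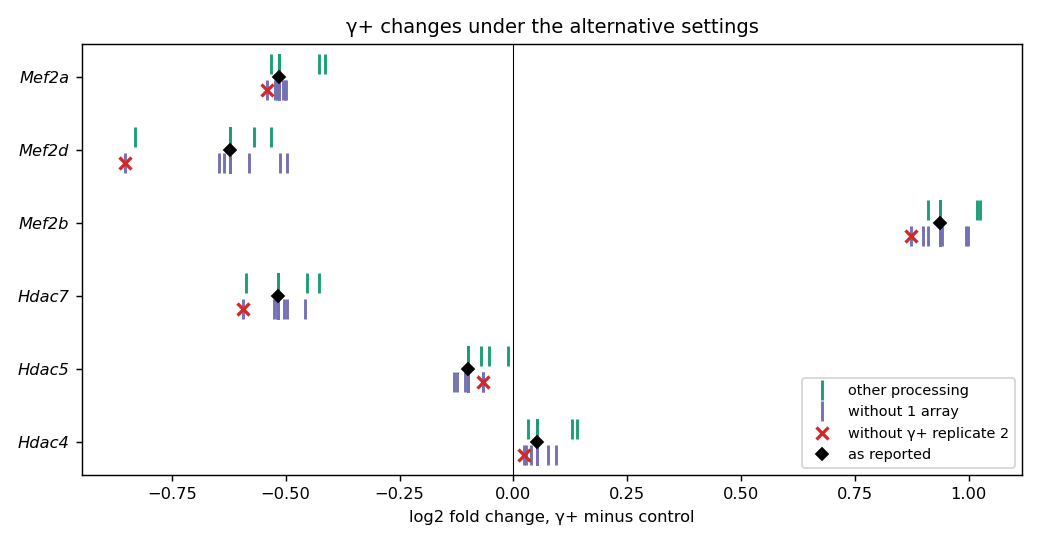
Log2 fold change of each gene between the γ+ group and control as reported (black diamonds), under other processing settings (green), and with 1 array left out (violet), with the value without γ+ replicate 2 as a red cross. Mef2d moves most, from -0.62 to -0.85 without that array, and no gene crosses 0.

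Across the 12 arrays Mef2a followed Hdac7 (Pearson r = 0.89) and Mef2d (0.82), and ran against Mef2b (-0.84). Hdac4 and Hdac5 had r = 0.08 with each other. These values describe 4 groups of arrays that share treatments and normalization. Of all tested genes, those with the pattern most like Mef2a were Dusp15 (r = 0.995), a dual-specificity phosphatase, Lbp (0.993), the lipopolysaccharide-binding protein, and Slco3a1 (0.993), an organic anion transporter. For Mef2d they were Vegfb (0.989), Ncam1 (0.986), a cell adhesion molecule, and Pdlim7 (0.980), a PDZ and LIM domain protein. Rfx2 (0.956), Gcfc2 (0.954) and Lrwd1 (0.953) were most like Mef2b, and Map4 (0.960), Smpd3 (0.958) and Fam163b (0.956) most like Hdac7. Likeness was lower for the pair that was not called, Hdac5 and Hdac4. Over all genes the standard deviation of r was 0.281 for Hdac5 and 0.395 for Hdac4, against 0.635 to 0.71 for the called genes. Called genes share a γ+ difference with many others, so high r is common for them and this contrast is no separate result. The closest were Tmem68 (0.877), Ier2 (0.871) and Maco1 (0.838) for Hdac5, and Htr1d (0.833), Map3k10 (0.833) and Arpin (0.795) for Hdac4. With r above 0.9 there were 1462 genes for Mef2a, 216 for Mef2d, 176 for Mef2b, 130 for Hdac7 and 0 for Hdac5 and Hdac4.

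Of the other histone deacetylases, the class I, IIb and IV genes had 1 of 7 higher and 1 lower in the γ+ group against control (28.6% called, beside 64.9% of all genes; median -0.03, lowest to highest -0.45 to 0.51), and 2 higher and 1 lower without γ+ replicate 2. Hdac1, a class I enzyme of nuclear corepressor complexes, rose by 0.51 ± 0.09 (limma adjusted p = 7.55e-05). Hdac11 fell, with a log2 fold change of -0.45 ± 0.11 (limma adjusted p = 0.00149). Hdac10 (0.16) was called when the arrays were rescaled (limma adjusted p = 0.0280 under median centring). Hdac3, the partner through which class IIa enzymes are thought to deacetylate histones, was at -0.10 and not called (limma adjusted p = 0.199), and is named here after its value was seen. Of 6 sirtuins, the NAD-dependent deacetylases, 3 fell and 0 rose, a called share of 50% beside 64.9% of all genes, with Sirt5 at -0.60, Sirt3 at -0.42 and Sirt6 at -0.23. Sirt6 was not called under median centring (-0.14), where Sirt4, named after its value was seen, was called higher (0.30). There were 4 lower sirtuins without γ+ replicate 2.

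Kinases that act on class IIa deacetylases, directly or, as Stk11, through another kinase, went both ways. Of 15 tested, 7 rose and 4 fell in the γ+ group against control, a share of 73.3% beside 64.9% of all genes, with a median of 0.08. Prkd2, a protein kinase D, rose to a log2 level of 7.24 in the γ+ group, against 6.27 in the control (0.97 ± 0.07, SE, limma adjusted p = 4.80e-09). Sik1, a salt-inducible kinase, fell to 7.27, against 8.41 in the control (log2 fold change -1.13 ± 0.06, limma adjusted p = 8.42e-11). Camk1g changed by -1.28 ± 0.10 (limma adjusted p = 1.27e-08), with a γ+ mean of 4.37, under the cutoff for dim probe sets. The other kinases called, named after their values were seen, were higher for Camk1d (0.95), Camk2b (0.53), Prkd1 (0.47), Mark2 (0.31), Prkd3 (0.27) and Mark3 (0.25), and lower for Camk2a (-0.25) and Camk1 (-0.21). All 3 protein kinase D genes were thus higher. Under median centring 7 kinases rose and 2 fell, Camk1 and Camk2a losing their calls, and without γ+ replicate 2 7 rose and 3 fell. Of the 14-3-3 proteins, 2 of 6 rose and 3 fell (2 and 2 under either rescaling), a called share of 83.3%, with Ywhaq at 0.32, Ywhag at -0.36 and Ywhah at -0.34. The other two, named after their values were seen, were Ywhae (0.22) and Ywhaz (-0.13), of which Ywhaz lost its call when the arrays were rescaled. The counts stayed 2 and 3 without γ+ replicate 2.

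Corepressor genes split evenly as deposited, with 4 of 11 higher and 4 lower in the γ+ group (5 and 2 under median centring, 5 and 5 without γ+ replicate 2). As deposited 72.7% were called, beside 64.9% of all genes. Gps2, a subunit of the NCoR complex, rose by 0.66 ± 0.08 (limma adjusted p = 3.45e-06). Tbl1xr1, another subunit of it, changed by -0.43 ± 0.10 and Suv39h1, a histone H3 methyltransferase, by -0.45 ± 0.11. Also called, and named after their values were seen, were Cbx5 (0.30), the heterochromatin protein HP1α, Rfxank (0.30), an ankyrin-repeat protein, Ncor1 (0.16), Ctbp1 (-0.24) and Tbl1x (-0.16). Ctbp1 and Tbl1x lost their calls under median centring. Kinases that activate MEF2 had 3 of 6 lower and 0 higher: Mapk12, a p38 kinase, at -0.45, Map2k3, which activates p38, at -0.32, and Mapk7, the kinase ERK5, at -0.24. The γ+ mean of Mapk12, 4.91, was near the cutoff for dim probe sets. Mapk7 was not called under median centring (limma adjusted p = 0.133). In the calcineurin group 3 of 7 fell and 0 rose (3 and 1 when the arrays were rescaled, with Rcan3, named after its value was seen, higher). Its feedback regulator Rcan1 changed by -2.21 ± 0.05, Rcan2 by -0.60 ± 0.05, and the catalytic subunit gene Ppp3cc by -0.55 ± 0.07. In both groups 3 were lower without γ+ replicate 2. As deposited 50% of the MEF2-activating kinases and 42.9% of the calcineurin genes were called lower, beside 38.7% of all genes.

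Coactivators and DNA-binding partners of MEF2 had 5 of 17 higher and 4 lower in the γ+ group (9 and 3 under median centring, 6 and 5 without γ+ replicate 2, median 0.11 as deposited). The called share was 52.9%, beside 64.9% of all genes. Myocd, the cardiac and smooth muscle coactivator myocardin, changed by -1.39 ± 0.10, Gata4, a cardiac transcription factor that binds MEF2, by -0.56 ± 0.05, and Nfatc3, a calcineurin-dependent factor, by 0.74 ± 0.06. Called too, with their values seen before they were named, were the acetyltransferases Crebbp (0.66) and Ep300 (0.40), the arginine methyltransferase Carm1 (0.32), Ncoa2 (0.21), Srf (-0.55), the partner factor of myocardin, and Hand1 (-0.25). Hand1 lost its call when the arrays were rescaled. In the SUMO pathway 5 of 9 genes rose and 1 fell (median 0.26), a called share of 66.7% beside 64.9% of all genes, of which 26.2% were higher. Attachment of SUMO is known to repress MEF2. The list also holds the SUMO proteases Senp2 and Senp3, the kinase Cdk5 and its activator Cdk5r1, so its count does not measure SUMO attachment. Sumo3 rose by 0.94 ± 0.06, Sumo2 by 0.68 ± 0.06 and Pias2, a SUMO ligase, by 0.46 ± 0.05. Pias4 (0.36), Pias1 (0.26) and Cdk5 (-0.37), a kinase that phosphorylates MEF2 in neurons, were called too and are named after their values were seen. With rescaled arrays 6 rose and 1 fell, Senp3 (0.31 under median centring), named after its value was seen, being called higher. Without γ+ replicate 2 the counts were also 6 and 1.

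**Figure D4:**
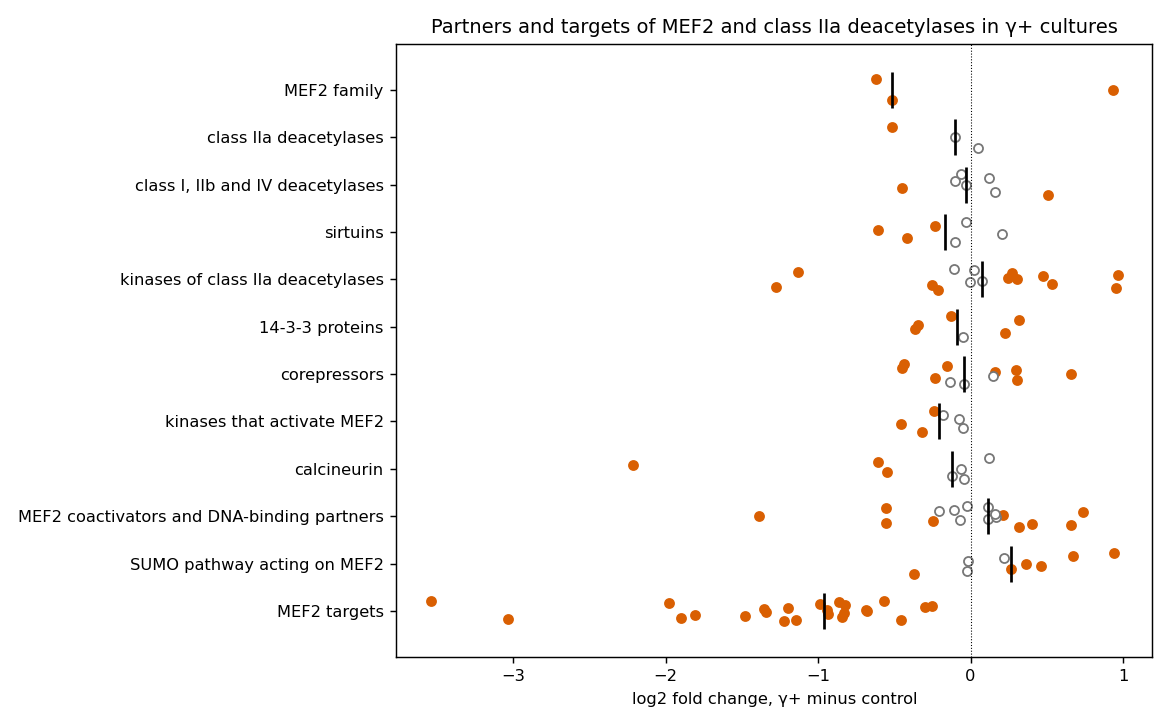
Log2 fold change between the γ+ group and control for each tested gene of the families, their partners and MEF2 target genes (1 point per gene; filled orange, adjusted p under 0.05; open grey, not called; black bar, median of the list). Most partner lists spread to both sides of 0, the 6 MEF2-activating kinases and all 24 target genes lie below it, and the targets have a median of -0.96.

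Of 24 tested MEF2 target genes, 24 fell in the γ+ group against control, beside 38.7% of all genes lower, with a median log2 fold change of -0.96 (24 without γ+ replicate 2; with rescaled arrays 23, Pgam2, named after its value was seen, losing its call). Xirp2, an actin-binding protein, changed by -3.54, Smyd1, a muscle histone methyltransferase, by -1.98 and Actc1, the cardiac actin, by -1.23. This list was chosen with earlier results of these data known, and many of its genes mark cardiomyocytes. Summed over 12 cardiomyocyte markers, the log2 intensity of the γ+23/24 arrays lay between 16.09 and 16.11, that of the γ+ arrays between 15.12 and 15.20, that of the γ- arrays between 16.08 and 16.10, and that of the control between 16.06 and 16.12. Among 125 tested genes with a MEF2 box in the promoter window, 48.0% were lower and 25.6% higher in the γ+ group, beside 37.6% and 27.2% of the 8319 tested genes with a promoter. Mef2a and Hdac5 are among the 125, of which Mef2a was lower and Hdac5 was not called. Whether the box has a part in these changes was not tested.

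In the γ- group against control 1 of 15 deacetylase kinases rose (Camk2g, 0.23) and 1 of 11 corepressors fell (Suv39h1, log2 fold change -0.67), beside 6.94% of all genes called. By limma 0 genes were called among the class I, IIb and IV deacetylases, the sirtuins, the 14-3-3 proteins and the SUMO pathway, where 0, 1, 0 and 2 genes in that order had an unadjusted p under 0.05. Of the MEF2-activating kinases 1 of 6 fell (Mapk12, log2 fold change -0.51, with a γ- mean of 4.86, near the cutoff for dim probe sets). In the calcineurin group Rcan2 rose by 0.35 and Rcan1 changed by -0.18. Nfatc3 rose by 0.21, and of 24 MEF2 targets 3 rose and 1 fell. The risers were Mb (0.69), the oxygen carrier myoglobin, Ppargc1a (0.30), a mitochondrial coactivator, and Myh6 (0.19), a myosin heavy chain, and Bmp10 (-0.44), a cardiac growth factor, was lower, the last pair named after their values were seen. Camk2g (0.25), Nfatc3 (0.23), Rcan1 (-0.16) and Myh6 (0.20) lost their calls under median centring, at the values given, which moved by little. Without γ+ replicate 2, which narrows the pooled error, 4 of 15 kinases rose and 1 fell, and 5 of 24 targets rose and 2 fell. That fit called 1665 of all 10025 genes, 707 higher and 958 lower.

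In the γ+23/24 group against control 0 genes of these lists were called by limma, with or without γ+ replicate 2. At an unadjusted p under 0.05 there were 3 of 15 deacetylase kinases (Camk1 at -0.26, Camk2b at 0.17 and Prkd2 at -0.16), 3 of 24 MEF2 targets, 1 of 6 sirtuins and 0 in the other lists of partners. These 3 kinases are named after their values were seen. The median of the MEF2 targets was 0.01. Against the γ- group, where 8.1% of all genes were called, 2 of 24 targets were lower in the γ+23/24 group, Mb (-0.58) and Ppargc1a (-0.50). Suv39h1 (0.56) was higher and Gps2 (-0.36) lower among 11 corepressors, and Mapk12 (0.68) and Mapk7 (0.27) were higher among 6 MEF2-activating kinases. Rcan2 (-0.27) was lower among 7 calcineurin genes, Ncoa2 (-0.27) and Nfatc3 (-0.23) among 17 coactivators and partners, and Cdk5r1 (0.40), an activator of the kinase Cdk5, was higher among 9 SUMO pathway genes. The γ- mean of Cdk5r1 was 4.58, under the cutoff for dim probe sets. Mapk7 and Cdk5r1 lost their calls under median centring, at 0.20 and 0.34, and Ncoa2 and Cdk5r1 under quantile normalization, at -0.25 and 0.32. In that comparison 0 class I, IIb and IV deacetylases, sirtuins, deacetylase kinases and 14-3-3 proteins were called by limma, and 1, 2, 8 and 0 in that order had an unadjusted p under 0.05. Under median centring Camk1 (-0.30), Tbl1x (-0.22) and Hrc (-0.37) gained calls. Under quantile normalization Ppp3r1 (0.26), Rcan1 (0.17), Smyd1 (0.20) and Myh6 (-0.16) did. All were named after their values were seen. Without γ+ replicate 2, 1 of 15 deacetylase kinases was higher and 3 lower. In that fit 1 of 6 sirtuins was higher and 1 of 7 class I, IIb and IV deacetylases lower. Of 24 MEF2 targets 2 were then higher and 5 lower, and of all 10025 genes 805 and 1033.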

How the data were processed

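RNA of 12 cultures was measured on Affymetrix rat gene arrays, 3 arrays per group, grouped by sample title. The values are the deposited log2 intensities. MAS5 is named, without a version, per the submitters' processing notes; the sources used here state no background correction, summarization, log base or normalization. That the deposited scale is log2 was taken from the values, which lay between 1.09 and 13.89, medians of arrays being 5.33 to 5.53. With 3 arrays per group, their number limits the precision.

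Of 28826 probe sets, 15209 had 1 gene symbol, 306 several and 13311 none. Symbols were updated through Entrez identifiers. Dim probe sets, those whose 12-array mean did not exceed the 40th percentile, were left out, and the brightest single-symbol probe set stood for each gene. All 6 measured genes of the families passed. Groups were compared with limma 3.58.1 in R 4.3.3 (lmFit, eBayes with intensity trend, a mean per group, 8 residual degrees of freedom), with Benjamini-Hochberg adjustment over the 10025 genes within each of 6 comparisons and two-sided tests. The procedure was tested on simulated data with independent noise and changes in a small part of the genes. Those data held no outlying array and no sets normalized apart, so they do not test the effect of either. Intervals are at 95%.

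The genes and lists were chosen with earlier results of these data known. All measured genes of the families are named. From each list the text names up to 3 genes of lowest adjusted p in the γ+ group against control and up to 2 in other comparisons with a call, and for each gene of the families the 3 genes of highest Pearson r over the 12 arrays. Other genes of the lists given with a value were named after it was seen, as marked. Alternatives were median centring, quantile normalization, no filter, a 60th percentile filter, the mean over probe sets, other variance priors, array weights, a replicate block, the compared arrays alone, and leaving out each array.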

Additional observations from a re-analysis of the deposited data

How the results depend on the processing

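Of the 36 results (6 genes in 6 comparisons), each under at most 22 alternatives, 0 reversed and 0 called results lost their call, and the 11 gains of a call were those of Mef2a, Hdac4 and Hdac7 given above. At the 60th percentile filter Mef2b and Hdac4 were not tested. The count of called genes among the 6 became 1, against 0, in the γ+23/24 group against the γ- group under quantile normalization, no filter, the mean over probe sets, array weights and the compared arrays alone. It became 1 in the γ- group against control with array weights. Leaving out an array gave 0 to 1 in both comparisons, the 1 coming without γ+ replicate 2. The arrays share only replicate numbers. Deviations of same-numbered arrays correlated from -0.223 to 0.124, with 1 of 18 pairs above 0.1, and 0 of 12 arrays correlated best with their own number. With a replicate block the called genes stayed 4 in each comparison that holds the γ+ group and 0 in the others. Over all genes, calls in the γ- group against control numbered 696, and 436 with arrays centred on the median, 1363 with dim probe sets kept, 425 at the stricter 60th percentile, 1745 with array weights, 1373 with the compared arrays alone, 1665 without γ+ replicate 2, and 267 to 343 without 1 array of the γ- or control group. In the γ+23/24 group against the γ- group they numbered 812, and 1641 with dim probe sets kept, 488 at the 60th percentile, 2528 with array weights, 1760 with the compared arrays alone, 1838 without γ+ replicate 2, and 263 to 529 without 1 array of either group. In the γ+23/24 group against control 0 became 220 with array weights, 58 without γ+ replicate 2, and 1 under quantile normalization or without control replicate 2. Without γ+ replicate 2, a check of the lists added after seeing the data, 24 of 24 MEF2 targets, 7 higher and 3 lower of 15 deacetylase kinases, and 6 higher and 1 lower of 9 SUMO pathway genes were called in the γ+ group against control. Of all 10025 genes that fit called 2852 higher and 3830 lower.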
